A study of Mus musculus with 6 samples.

Results

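Prostaglandin and leukotriene synthesis genes were examined in bulk RNA of cultured bone marrow (BM) cells labelled MSCs. MSCs are the plastic-adherent stromal cells that can form osteoblasts and adipocytes. Markers of other cell types, macrophages among them, were also abundant in these samples. The genes were the 10 rows of the table of 56980 genes whose symbol was *Ptgs1*, *Ptgs2*, *Ptges*, *Ptgis*, *Ptgds*, *Hpgds*, *Tbxas1*, *Alox5*, *Alox5ap* or *Ltc4s*, and each symbol matched 1 row. The MSCs came from female recipients, ovariectomised (OVX) when they were 8 weeks old, whose gut microbiota was depleted with antibiotics before FMT by gavage over 8 weeks. The donors were sedentary OVX mice for the TranspCtrl group (n = 3) and treadmill-exercised OVX mice for the TranspExer group (n = 3). All 6 samples therefore share OVX, antibiotics and a transplant, and the strain is not given in the sources used here. Flushed marrow was cultured for 7 days with medium changes and washes, no sorting step is described, and the labels do not say whether samples were separate animals or cultures, so the p-values measure the spread between these samples.

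Eicosanoids are lipid mediators made from arachidonic acid after phospholipases release it from membranes. In the prostanoid branch, the cyclooxygenases turn arachidonic acid into an unstable endoperoxide, and terminal synthases turn that endoperoxide into prostaglandin E, prostacyclin, prostaglandin D or thromboxane. In the leukotriene branch, 5-lipoxygenase works with its activating protein at the nuclear membrane, and the product is conjugated with glutathione or hydrolysed. In bone, prostaglandin E acts on osteoblast precursors and on osteoclast formation, whereas thromboxane and leukotrienes are known mainly as products of platelets, macrophages and granulocytes.

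Total counts ranged from 17647682 to 21319228 per sample, and 3 counts, the floor used here for an undetected gene, equalled 0.139 to 0.174 CPM (the library-scaled count unit, here with TMM factors). After the low-count filter, 15190 genes were tested with edgeR, and 9 of the 10 synthesis genes were among them. TranspCtrl replicate 1 stood apart from the other TranspCtrl samples: averaged over genes, the chi-square of its counts was 59.3 and 54.1 against them, where pure counting noise gives 1, compared with 3.79 between TranspCtrl replicates 2 and 3 and 4.45 to 7.85 within TranspExer. Values without it are therefore given beside each synthesis gene whose call or direction it changed, and beside some other results. Of all genes tested, 32.2% passed an adjusted p-value of 0.05 (16.6% higher and 15.5% lower in TranspExer) and 8.78% also had an absolute fold change of 2 (3.5% higher and 5.28% lower). Of the genes past the adjusted p-value, 51.7% were higher, and this share was 40.5% with counts scaled by library size only and 41.4% with upper-quartile factors.

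Cyclooxygenase-2 and the inducible prostaglandin E synthase were lower in TranspExer, while cyclooxygenase-1, hematopoietic prostaglandin D synthase and thromboxane synthase were higher. *Ptgs2* and *Ptges* fell by 0.88 and 0.73 on the log2 scale, and *Ptgs1*, *Hpgds* and *Tbxas1* rose by 0.45, 0.51 and 0.38. The *Tbxas1* call was less stable than the others, and was lost with each of 5 samples left out in turn and under both other edgeR scalings. None of the 9 tested genes reached a fold change of 2, so none was a DEG by both thresholds. At the adjusted p-value alone, 3 of the 9 tested genes were higher and 2 were lower, and these were also the genes whose samples did not overlap between groups, which was the case for 52.4% of all genes tested (27.2% higher and 25.1% lower). The 4 other tested genes, *Ptgis*, *Alox5*, *Alox5ap* and *Ltc4s*, did not pass. The median log2 fold change of the 9 genes was 0.16, against -0.02 for all genes tested.

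**Figure D1:**
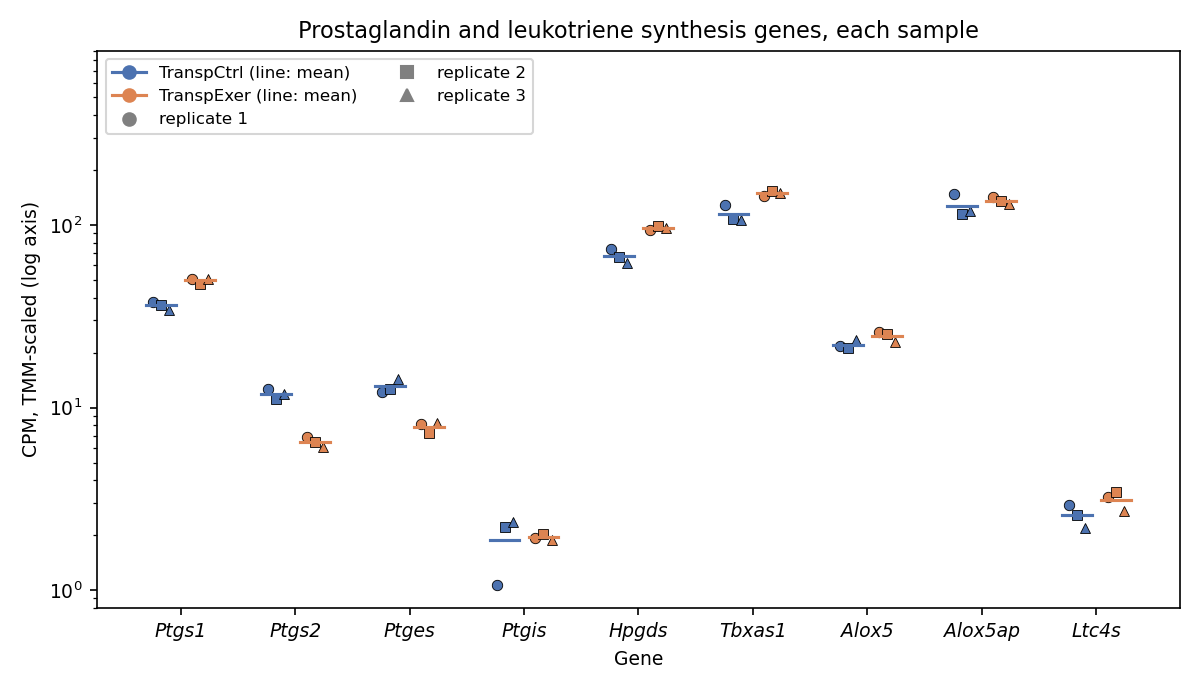
Level of each tested synthesis gene in each sample, as TMM-scaled CPM on a log axis, with 3 TranspCtrl and 3 TranspExer samples per gene, a marker shape for each replicate and a line at the group mean. *Ptgs2* and *Ptges* lie lower in all TranspExer samples, *Ptgs1*, *Hpgds* and *Tbxas1* lie higher, and TranspCtrl replicate 1 is the lowest sample for *Ptgis* (1.07 CPM) and the highest for *Alox5ap* (147 CPM).

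*Ptgs2* (ENSMUSG00000032487, mm10 chr1:150100031-150108227, plus strand) encodes cyclooxygenase-2, the isozyme that cytokines and growth factors induce in stromal cells and macrophages. It had 12.7, 11.2 and 11.8 CPM in TranspCtrl replicates 1, 2 and 3 and 6.91, 6.45 and 6.06 CPM in TranspExer replicates 1, 2 and 3. Every TranspExer sample was below every TranspCtrl sample, and the gap between the groups exceeded the range within either. The group levels were 11.9 ± 0.759 CPM (SD, n = 3) and 6.47 ± 0.423 CPM (SD, n = 3), a 1.84-fold lower level in TranspExer (log2 fold change -0.88, standard error 0.12, adjusted p = 0.0013 from edgeR). Its log2 fold change stayed between -0.93 and -0.83 with each sample left out in turn, and it remained past the adjusted p-value threshold.

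*Ptgs1* (ENSMUSG00000047250, mm10 chr2:36230426-36252272, plus strand) encodes cyclooxygenase-1, the constitutive isozyme of platelets, macrophages and many other cells. Its level was 38.0, 36.6 and 34.4 CPM in the TranspCtrl samples and 50.8, 47.5 and 50.7 CPM in the TranspExer samples. The groups did not overlap, in the opposite direction to *Ptgs2*. The difference was 1.37-fold (log2 fold change 0.45, standard error 0.08, adjusted p = 0.00388), and it was 0.49 without TranspCtrl replicate 1 (adjusted p = 7.34e-05).

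Because both cyclooxygenases make the same endoperoxide, their balance was compared within each sample. Per base of gene length as listed in the table, *Ptgs2* had 0.215, 0.197 and 0.22 times the *Ptgs1* level in TranspCtrl, and 0.0874, 0.0875 and 0.0769 times that level in TranspExer. Thus *Ptgs1* was the more abundant transcript in all 6 samples, and its excess was larger in each TranspExer sample. The log2 ratio of *Ptgs2* to *Ptgs1* (CPM + 0.5) was -1.57 ± 0.08 (SD, n = 3) in TranspCtrl and -2.85 ± 0.1 (SD, n = 3) in TranspExer, a difference of -1.28 or 2.42-fold. The exact two-sided permutation test gave p = 0.1, the smallest value that 3 samples against 3 allow, and 0.4 after Benjamini-Hochberg adjustment over the 4 ratios tested.

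*Ptges* (ENSMUSG00000050737, mm10 chr2:30889471-30929863, minus strand) encodes the inducible microsomal prostaglandin E synthase, which is commonly coupled with cyclooxygenase-2. It had 12.2, 12.7 and 14.3 CPM in TranspCtrl and 8.11, 7.26 and 8.25 CPM in TranspExer. As with *Ptgs2*, all TranspExer samples lay below all TranspCtrl samples. The level was 1.65-fold lower in TranspExer (log2 fold change -0.73, standard error 0.12, adjusted p = 0.00311), and the log2 fold change was -0.77 without TranspCtrl replicate 1 (adjusted p = 0.000147). Of the other genes listed as prostaglandin E synthases, *Ptges2* and *Ptges3* did not pass, at 0.08 and 0.59 on the log2 scale (adjusted p = 0.685 and 0.0788). *Ptges3* encodes a cochaperone of HSP90 with reported synthase activity, and TranspCtrl replicate 1 had 114 CPM of it against 211 and 221 in the other TranspCtrl samples. Without that sample its log2 fold change was 0.34 (adjusted p = 0.000639). The glutathione transferase genes *Gstm2* and *Gstm5*, in the same list of other synthases, fell by 0.97 and 0.92 on the log2 scale (adjusted p = 0.000737 and 0.00983, the second up to 0.0521 with single samples left out).

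The sequences before the annotated starts of *Ptgs2* and *Ptges*, which fell together, are shown beside that of *Ptgs1*, which moved the other way. Each runs 5′ to 3′ on the gene's strand, from 150 bases before the RefSeq start to 30 bases after it (GRCm38.p6, the assembly of mm10), and capitals mark matches to the motifs named after them.
*Ptgs2*, chr1:150099881-150100060, plus strand: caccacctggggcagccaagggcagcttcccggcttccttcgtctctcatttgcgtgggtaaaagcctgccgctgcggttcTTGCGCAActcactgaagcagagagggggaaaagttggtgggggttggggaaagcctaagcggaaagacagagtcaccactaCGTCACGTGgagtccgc
*Ptges*, chr2:30903268-30903447, minus strand: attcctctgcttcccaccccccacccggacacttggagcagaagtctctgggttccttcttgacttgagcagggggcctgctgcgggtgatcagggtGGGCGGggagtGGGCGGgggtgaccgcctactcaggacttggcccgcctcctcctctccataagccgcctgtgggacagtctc
*Ptgs1*, chr2:36230276-36230455, plus strand: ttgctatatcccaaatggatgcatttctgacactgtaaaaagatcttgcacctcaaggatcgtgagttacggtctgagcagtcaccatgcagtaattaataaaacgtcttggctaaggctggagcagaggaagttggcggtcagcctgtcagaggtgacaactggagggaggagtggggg
Both strands were searched for 5 motifs. The core of a cyclic AMP response element was written TGACG. The palindrome bound by C/EBP factors was written TTGCGCAA. For the E box bound by helix-loop-helix factors the letters were CACGTG, and for the GC box bound by Sp family factors they were GGGCGG. The TATA box, where the general transcription machinery assembles, was written TATAAA. The *Ptgs2* window held the C/EBP palindrome, which was present in 0.128% of 32851 RefSeq promoter windows of the same length. It also held a cyclic AMP response core on the opposite strand (15.6% of windows) and an E box (5.09% of windows), which overlap each other and lie after the annotated start. The *Ptges* window held 2 GC boxes, a motif found in 31% of windows, and the *Ptgs1* window held none of the 5 motifs. The RefSeq start of *Ptges* lies inside the longer gene that GENCODE annotates. Among the other windows, those of *Hpgds*, *Ltc4s* and *Ptgds* also held none of the motifs. That of *Alox5*, which was not called, held a GC box. That of *Tbxas1*, which was higher, held TATA box matches, so holding a match did not follow the direction of change. Windows were found for 8 of the 10 genes, and a match is a description of letters, with no measurement of binding here.

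**Figure D2:**
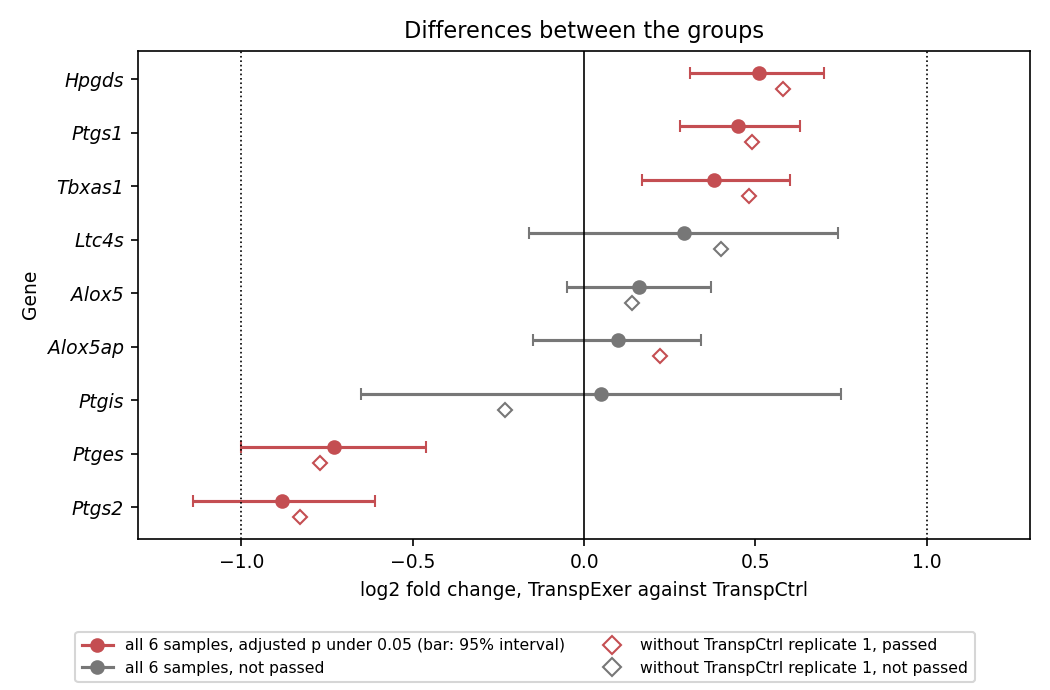
Log2 fold change of each tested synthesis gene (x axis, TranspExer against TranspCtrl) with its 95% interval from all 6 samples (filled points) and its value without TranspCtrl replicate 1 (open diamonds). Red marks an adjusted p-value under 0.05 and dotted lines a fold change of 2. *Ptgs2* and *Ptges* lie left of 0 and *Hpgds*, *Ptgs1* and *Tbxas1* right of it, *Alox5ap* passes only without that replicate, and *Ptgis* changes sign without it and under other scalings.

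*Hpgds* (ENSMUSG00000029919, mm10 chr6:65117293-65144908, minus strand) encodes hematopoietic prostaglandin D synthase, a glutathione-dependent enzyme of mast cells, macrophages and other hematopoietic cells. It had 73.7, 66.8 and 61.7 CPM in TranspCtrl and 93.3, 98.5 and 95.8 CPM in TranspExer. The groups did not overlap, and TranspCtrl varied more (67.4 ± 6.02 CPM, SD, n = 3) than TranspExer (95.9 ± 2.56 CPM, SD, n = 3). The level was 1.42-fold higher in TranspExer (log2 fold change 0.51, standard error 0.09, adjusted p = 0.00372). The other prostaglandin D synthase, encoded by *Ptgds* (ENSMUSG00000015090, mm10 chr2:25466709-25470046, minus strand), is a lipocalin known from brain and male genital organs. Counts of *Ptgds* were 0, 0 and 1 across TranspCtrl and 2, 0 and 1 across TranspExer, at or below the floor in every sample, and it was not tested. Per base of gene length, *Hpgds* was at least 112-fold higher than *Ptgds* in each sample, with *Ptgds* set to the floor of 3 counts per library.

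*Tbxas1* (ENSMUSG00000029925, mm10 chr6:38875404-39084585, plus strand) encodes thromboxane A synthase, a cytochrome P450 of platelets and macrophages. Its level was 129, 108 and 106 CPM in TranspCtrl and 144, 153 and 150 CPM in TranspExer. The groups did not overlap, although TranspCtrl replicate 1 came nearer to TranspExer than the other TranspCtrl samples did. The level was 1.3-fold higher in TranspExer (log2 fold change 0.38, standard error 0.09, adjusted p = 0.0177). This call was the weakest of the 5. The adjusted p-value rose to between 0.0515 and 0.0876 when any 1 sample other than TranspCtrl replicate 1 was left out, to 0.0707 with library size only and to 0.0625 with upper-quartile factors. Without TranspCtrl replicate 1 it was 1.46e-05. *Tbxas1* is overlapped on the opposite strand by *Hipk2*, which had a mean count of 454, and whether the counting used strand is not given in the sources used here.

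*Ptgis* (ENSMUSG00000017969, mm10 chr2:167191805-167240604, minus strand) encodes prostacyclin synthase, the related P450 that endothelial and smooth muscle cells use to make prostacyclin. It was the least abundant of the 9 tested genes, with counts of 22, 43 and 51 across TranspCtrl and 37, 35 and 38 across TranspExer. TranspCtrl replicate 1 was below all other samples, and the remaining TranspCtrl samples were above all TranspExer samples. The log2 fold change was 0.05 (95% interval -0.65 to 0.75, adjusted p = 0.913), and without TranspCtrl replicate 1 it was -0.23 (adjusted p = 0.454). Changes within that interval are not excluded by these data, and no limit of detection was computed. The log2 ratio of *Ptgis* to *Tbxas1* was -5.63 ± 0.63 (SD, n = 3) in TranspCtrl and -5.93 ± 0.04 (SD, n = 3) in TranspExer, and the difference was -0.3 (exact permutation p = 0.4). The difference rested on the TranspCtrl samples: it was -0.66 without replicate 1 (exact permutation p = 0.1, the smallest that 2 samples against 3 allow), and -0.14 and -0.09 without replicates 2 and 3.

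In the leukotriene branch, none of the 3 genes passed the test in all 6 samples. *Alox5* (ENSMUSG00000025701, mm10 chr6:116410077-116461178, minus strand) encodes 5-lipoxygenase, the enzyme that starts leukotriene synthesis. It had 21.7, 21.1 and 23.5 CPM in TranspCtrl and 26.0, 25.2 and 22.9 CPM in TranspExer, and TranspCtrl replicate 3 lay above TranspExer replicate 3. The log2 fold change was 0.16 (95% interval -0.05 to 0.37, adjusted p = 0.217).

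*Alox5ap* (ENSMUSG00000060063, mm10 chr5:149264767-149288153, plus strand) encodes the membrane protein that presents arachidonic acid to 5-lipoxygenase. It had 147, 115 and 119 CPM in TranspCtrl and 142, 135 and 131 CPM in TranspExer. TranspCtrl replicate 1 was the highest of all samples, while TranspCtrl replicates 2 and 3 were the lowest. The log2 fold change was 0.1 (95% interval -0.15 to 0.34, adjusted p = 0.503) and became 0.22 without TranspCtrl replicate 1 (adjusted p = 0.00752), so that sample decided the call.

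*Ltc4s* (ENSMUSG00000020377, mm10 chr11:50236461-50238616, minus strand) encodes leukotriene C4 synthase, which joins glutathione to the 5-lipoxygenase product. Its counts were 60, 50 and 47 across TranspCtrl and 62, 59 and 55 across TranspExer, or 2.56 ± 0.372 CPM (SD, n = 3) and 3.13 ± 0.361 CPM (SD, n = 3). The ranges overlapped, with TranspCtrl replicate 1 above TranspExer replicate 3. The log2 fold change was 0.29 (95% interval -0.16 to 0.74, adjusted p = 0.282). The log2 ratios of *Ltc4s* to *Alox5* and of *Alox5* to *Alox5ap* differed between groups by 0.09 and 0.05 (exact permutation p = 0.9 for both), less than their spread in TranspCtrl (SD 0.24 and 0.22).

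The order of the genes was compared in CPM per kilobase of listed gene length. *Alox5ap* was highest, with 102 ± 14.1 CPM per kilobase (SD, n = 3) in TranspCtrl and 109 ± 4.55 (SD, n = 3) in TranspExer. *Tbxas1* followed, with 57.5 and 74.9 CPM per kilobase, and then *Hpgds* (19.4 and 27.6), *Ptgs1* (12.7 and 17.3) and *Alox5* (7.83 and 8.75). These 5 genes kept that order in both groups, with no overlap between neighbours. *Ltc4s* and *Ptges* could not be separated in TranspCtrl, at 3.05 to 4.09 and 3.33 to 3.91 CPM per kilobase, whereas in TranspExer *Ltc4s* was at 3.82 to 4.79 and *Ptges* at 1.99 to 2.26. *Ptgs2* came next, at 2.67 and 1.45 CPM per kilobase, and *Ptgis* was the lowest tested gene, at 1.1 and 1.14. Among the 5 terminal prostanoid synthases examined, *Tbxas1* and *Hpgds* thus had the highest levels in both groups.

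The other genes of eicosanoid metabolism were taken from a list of 79 symbols, of which 76 were found and 62 genes were tested. At the adjusted p-value, 16 were higher and 13 lower in TranspExer, and 33 did not pass. Past both thresholds, 6 were higher and 2 lower, and the median log2 fold change was 0.05. With single samples left out, the adjusted p-value alone gave as few as 9 higher genes (without TranspExer replicate 2). The fewest lower genes were 6 (without TranspExer replicate 3). Both thresholds then gave 4 to 6 higher and 1 to 4 lower genes, with 4 higher without TranspCtrl replicate 1. These counts describe the list beside the 16.6% and 15.5% (3.5% and 5.28% with both thresholds) of all genes.

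Among genes that release or handle arachidonic acid, the cytosolic phospholipase *Pla2g4a*, the main supplier of the cyclooxygenases, had 43.9 CPM in TranspCtrl and 44.0 CPM in TranspExer (log2 fold change 0.00, adjusted p = 0.97). *Pla2g4c*, a related phospholipase, fell from 2.99 to 1.48 CPM (log2 fold change -1.01, adjusted p = 0.0156), and its adjusted p-value reached 0.0652 with single samples left out. The 3 genes of the release group that rose past both thresholds were *Dagla* and *Daglb*, which make 2-arachidonoylglycerol, and *Mgll*, which hydrolyses it. *Dagla* rose from 5.57 to 11.9 CPM and *Daglb* from 68.6 to 198 CPM (adjusted p = 0.0027 and 0.000397). *Dagla* fell short of a fold change of 2 without TranspCtrl replicate 1 (log2 fold change 0.92). *Mgll* rose from 16.5 to 41.8 CPM (adjusted p = 0.000101). *Faah*, another hydrolase of arachidonoyl lipids, fell from 3.1 to 1.75 CPM (log2 fold change -0.83, adjusted p = 0.0176, and up to 0.0709 with single samples left out). The most abundant gene of the release group was *Pla2g7*, the platelet-activating factor hydrolase, at 401 and 441 CPM (adjusted p = 0.272), and that of the reacylation group was *Acsl4*, at 108 and 112 CPM (adjusted p = 0.743). In the same group, *Acsl3* fell from 31.0 to 17.1 CPM (adjusted p = 0.00068) and *Mboat7* rose from 53.6 to 70.7 CPM (adjusted p = 0.0338, and up to 0.11 with single samples left out). Without TranspCtrl replicate 1, *Pla2g7* passed, with a log2 fold change of 0.21 (adjusted p = 0.00457).

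The 3 tested lipoxygenase genes other than *Alox5* were all higher. *Alox12*, the platelet-type 12-lipoxygenase, had 4.49, 5.39 and 5.35 CPM in TranspCtrl and 16.1, 15.6 and 14.8 CPM in TranspExer (log2 fold change 1.61, standard error 0.12, adjusted p = 0.0001). *Alox15*, the 12/15-lipoxygenase of macrophages and eosinophils, rose from 6.36 to 10.6 CPM (log2 fold change 0.74, adjusted p = 0.0228, and up to 0.0919 with single samples left out). *Aloxe3*, an epidermis-type lipoxygenase, was counted 1, 5 and 6 times across TranspCtrl and 13, 16 and 16 times across TranspExer, too low for a precise fold (adjusted p = 0.0175, and up to 0.0695 with single samples left out). Among synthases next to the leukotriene branch, *Lta4h*, which hydrolyses the 5-lipoxygenase product to leukotriene B4, rose from 140 to 233 CPM (log2 fold change 0.73, adjusted p = 0.00104). Thus *Lta4h* passed the test whereas *Ltc4s*, which uses the same substrate, did not, and the difference between their changes was not tested. *Mgst2*, which can also make leukotriene C4, rose from 9.17 to 12.9 CPM, and the related *Mgst1* from 96.1 to 121 CPM (adjusted p = 0.0284 and 0.00976, and up to 0.118 and 0.0526 with single samples left out). *Dpep1*, the most abundant gene of leukotriene processing, fell from 70.2 to 52.7 CPM (adjusted p = 0.0225, and up to 0.0923 with single samples left out).

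Of 12 tested genes of transport and inactivation, none was higher and 4 were lower at the adjusted p-value, beside 16.6% and 15.5% of all genes. *Slco2a1*, the prostaglandin uptake transporter, fell from 19.5 to 12.5 CPM (log2 fold change -0.64, adjusted p = 0.00577). *Abcc1*, an exporter of leukotriene C4, fell from 171 to 133 CPM (log2 fold change -0.37, adjusted p = 0.00748). The other two were the prostaglandin reductase *Ptgr2* and the epoxide hydrolase *Ephx1* (adjusted p = 0.0277 and 0.0429), and both calls were lost with single samples left out (up to 0.106 and 0.159). *Hpgd*, the main prostaglandin-inactivating dehydrogenase, had 15.7 and 16.6 CPM (adjusted p = 0.638).

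Among prostanoid receptors, *Tbxa2r*, the thromboxane receptor, rose from 2.09 to 4.41 CPM (log2 fold change 1.08, standard error 0.19, adjusted p = 0.00438), in the same direction as *Tbxas1*. The log2 fold change of *Tbxa2r* was 0.95 without TranspCtrl replicate 1, short of a fold change of 2. *Ptgfr*, the prostaglandin F receptor, fell from 8.41 to 3.26 CPM (log2 fold change -1.36, standard error 0.21, adjusted p = 0.00252). Of the prostaglandin E receptors, *Ptger2* rose (log2 fold change 0.51, adjusted p = 0.00747), while *Ptger4* had 16.7 and 18.7 CPM (adjusted p = 0.358). *Ptgfrn*, the most abundant gene of that group, encodes a partner protein of the prostaglandin F receptor and not a prostanoid receptor, and it had 71.4 and 62.4 CPM (adjusted p = 0.192). Its log2 fold change was -0.3 without TranspCtrl replicate 1 (adjusted p = 0.00096). The leukotriene B4 receptor *Ltb4r1* rose from 11.6 to 20.9 CPM (adjusted p = 0.00408) and the cysteinyl leukotriene receptor *Cysltr1* fell from 26.7 to 19.0 CPM (adjusted p = 0.00586). The most abundant gene in that group was the chemerin and resolvin receptor *Cmklr1*, with 58.5 and 71.8 CPM (adjusted p = 0.0418, and up to 0.169 with single samples left out). *Alox15*, *Lta4h*, *Slco2a1*, *Ptgr2*, *Ephx1*, *Faah*, *Acsl3*, *Mboat7*, *Gstm2*, *Gstm5*, *Mgst1*, *Mgst2*, *Hpgd*, *Pla2g4a*, *Ptges2*, *Ptger2*, *Ptger4*, *Ltb4r1* and *Cysltr1* were named for their known roles after their values were seen.

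**Figure D3:**
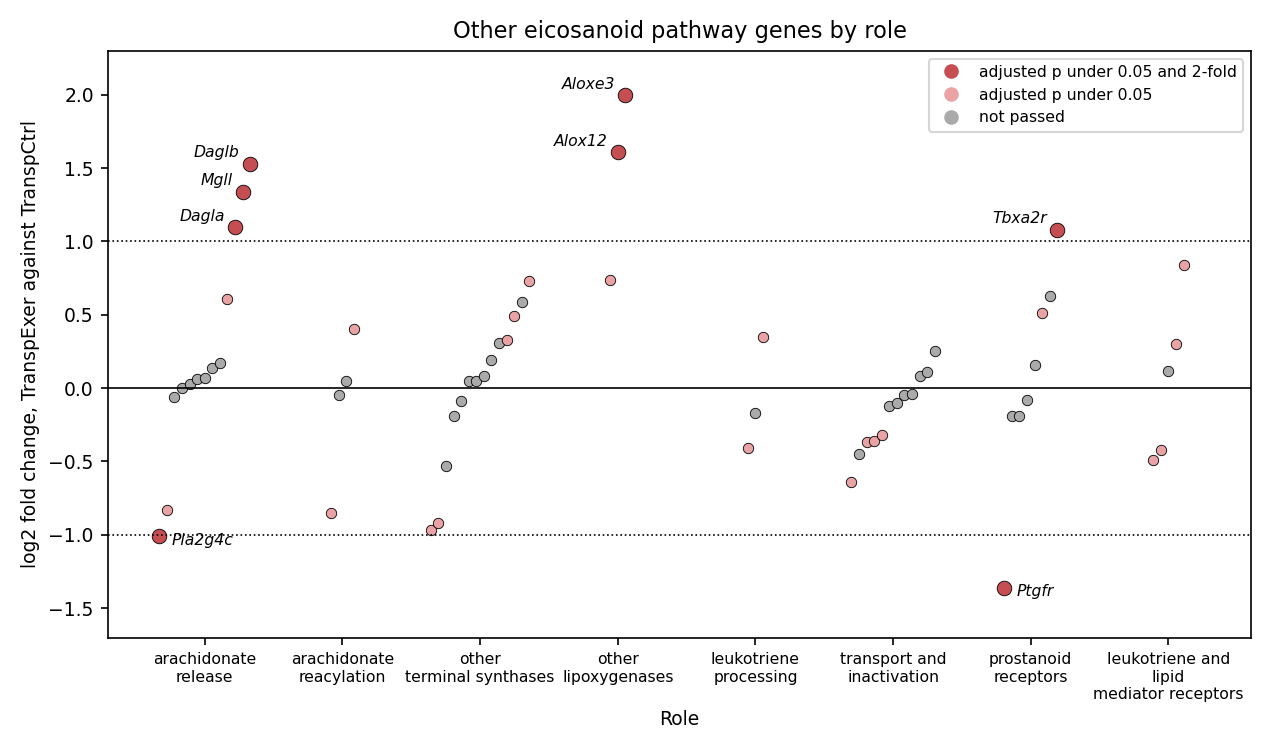
Log2 fold change (y axis, TranspExer against TranspCtrl) of 62 tested eicosanoid pathway genes other than the 10 synthesis genes, 1 point per gene, sorted within 8 roles on the x axis. Dark red points passed both thresholds (6 higher, 2 lower), light red points the adjusted p-value only, and grey points neither. All 3 points of the lipoxygenase group lie above 0, and no called point of transport and inactivation does.

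Markers of several cell types differed between the groups, and in bulk RNA fewer cells of a type cannot be told apart from less RNA per cell. The marker counts here and below stand beside the 16.6% higher and 15.5% lower of all genes tested at the adjusted p-value. All 14 stromal markers were detected, and the summed level was 15100 to 23200 CPM in TranspCtrl and 14200 to 15500 CPM in TranspExer, most of it from *Col1a1* and *Col1a2*. Their detection cannot show that the cells were all stromal, since macrophage and neutrophil markers, given below, were also abundant in all samples. Beside the lower *Ptgs2* and *Ptges*, 10 of these 14 markers were lower and 2 higher, and of 10 B and plasma cell markers 7 were lower and none higher, with sums of 1810 to 2120 and 633 to 659 CPM. Of 7 osteoclast markers, 6 were lower and 1 higher (457 to 592 and 322 to 347 CPM). The summed macrophage list and the pericyte and smooth muscle list, given below, were also lower in TranspExer, so the lists set here are not the only ones that fell. The part of any of these cells in the lower *Ptgs2* and *Ptges* was not tested.

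Beside the higher *Hpgds*, *Tbxas1* and *Ptgs1*, macrophage and monocyte markers were abundant in all samples. Of 14 such markers, 3 were higher, 2 were lower and 9 did not pass, and the called shares of 21.4% and 14.3% were near those of all genes. Without TranspCtrl replicate 1, 7 were higher and 2 lower, the added ones being *Adgre1*, *C1qb*, *C1qc* and *Cd163*, while the share of all genes that were higher went from 16.6% to 22.1%. The summed level was 10000 to 15100 CPM in TranspCtrl and 8320 to 8980 CPM in TranspExer. The most abundant of them, *Lyz2*, fell from 6410 to 2910 CPM (adjusted p = 0.00873, and up to 0.0506 with single samples left out), and TranspCtrl replicate 1 alone had 9100 CPM of it. Without *Lyz2* the sum of the other 13 markers was 6040, 5100 and 5030 CPM in TranspCtrl and 5750, 5840 and 5720 CPM in TranspExer, so the lower sum came from that gene. TranspCtrl replicates 2 and 3 then lay below all TranspExer samples, and TranspCtrl replicate 1 lay above them. Leaving out *Lyz2* was chosen after the values were seen, and the sum of the full list was lower in TranspExer. The other marker that fell was the mannose receptor *Mrc1* (683 to 544 CPM, adjusted p = 0.0159, and up to 0.0746 with single samples left out). The markers that rose were the lysosomal *Cd68* (479 to 823 CPM, adjusted p = 0.000377), the efferocytosis receptor *Mertk* (115 to 188 CPM, adjusted p = 0.000735) and the Fc receptor *Fcgr1* (134 to 174 CPM, adjusted p = 0.0474, and up to 0.18 with single samples left out). *Csf1r*, the receptor that defines this lineage and the second most abundant marker of the list, had 882 and 928 CPM (log2 fold change 0.07, adjusted p = 0.511). Of 9 megakaryocyte and platelet markers, 7 were higher and none lower (274 to 329 and 521 to 553 CPM). Of 10 eosinophil and basophil markers, 8 were higher and 1 lower (76.4 to 103 and 199 to 213 CPM). Of 7 tested mast cell markers, 6 were higher and 1 lower (52.5 to 55.9 and 116 to 118 CPM), with *Kit*, the stem cell factor receptor that progenitors also carry, going from 15.7 to 52.2 CPM. The mast cell proteases did not move together. *Cpa3*, the most abundant of them, rose from 10.3 to 19.8 CPM (adjusted p = 0.000377), and *Cma1* fell from 2.4 to 0.932 CPM (adjusted p = 0.00647). *Tpsb2* (0.629 and 0.143 CPM), *Mcpt4* (0.516 and 0.21 CPM) and *Tpsab1* were below the low-count filter. Of 13 neutrophil markers, 6 were higher and 2 lower, with sums of 3330 to 4420 and 5890 to 6140 CPM. Those that rose included the primary granule genes *Mpo* (216 to 1200 CPM) and *Elane* (97.5 to 435 CPM), which are made in granulocyte progenitors. *Ngp*, the most abundant of the list (1360 to 1960 CPM, adjusted p = 0.00386), and *Csf3r* (61.2 to 88.6 CPM, adjusted p = 0.00161) also rose. Those that fell were *Ly6g* and *Cxcr2* of mature neutrophils (adjusted p = 0.0375 and 0.0131, and up to 0.119 and 0.058 with single samples left out). *S100a8*, *S100a9*, *Camp*, *Ltf* and *Retnlg* did not pass. Their part in the higher *Hpgds*, *Tbxas1* and *Ptgs1* was not tested. Beside *Ptgis*, all 11 endothelial markers were higher (226 to 280 and 750 to 826 CPM), and of 8 pericyte and smooth muscle markers 4 were higher and 3 lower (2520 to 2970 and 1800 to 2010 CPM). Of 10 T and NK cell markers, 3 were higher and 1 lower (30% and 10%, in a short list), with sums of 60.1 to 62.9 and 80.9 to 87.5 CPM. None of 7 erythroid markers passed the low-count filter, with sums of at most 0.894 CPM.

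**Figure D4:**
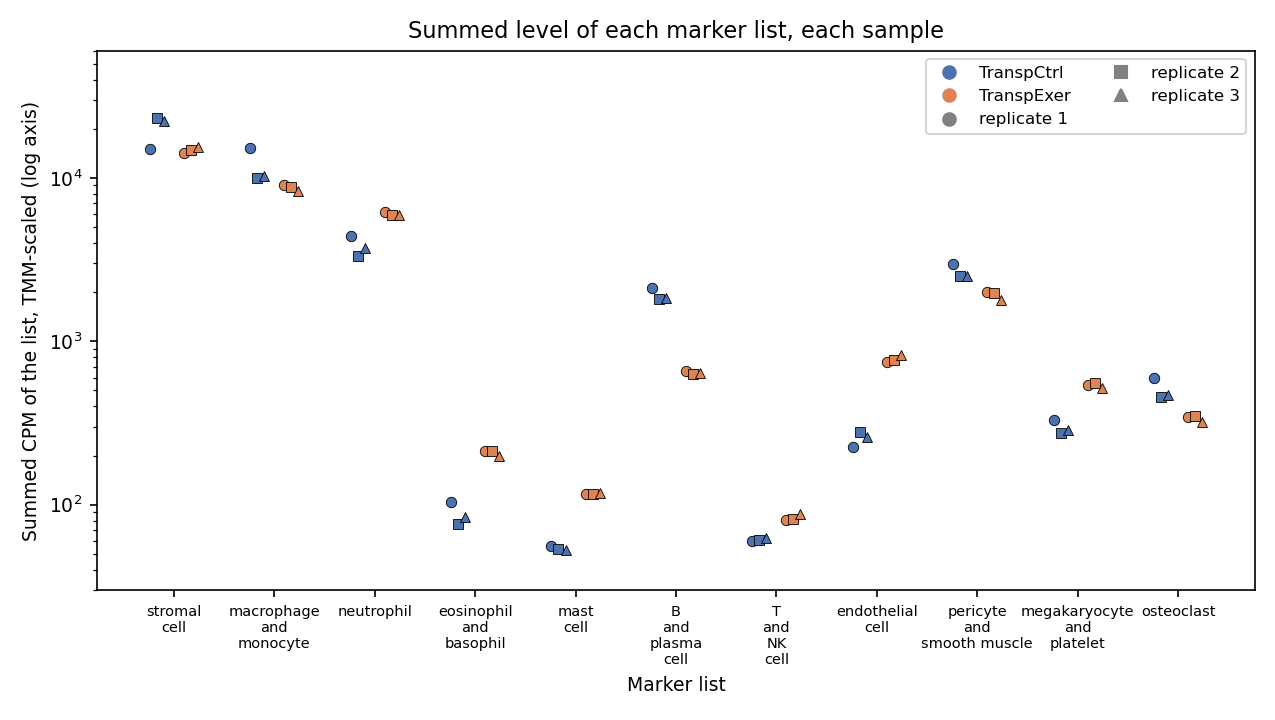
Summed TMM-scaled CPM (y axis, log scale) of 11 marker lists in each sample, with TranspCtrl in blue, TranspExer in orange and a marker shape for each replicate. The endothelial, megakaryocyte, mast cell, eosinophil, neutrophil and T and NK cell lists lie higher in all TranspExer samples. The B and plasma cell, osteoclast, pericyte and macrophage lists lie lower in all of them, and the stromal list overlaps between groups. TranspCtrl replicate 1 lies apart for the stromal and macrophage lists.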

How the data were processed

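RNA-Seq was examined in 3 TranspCtrl and 3 TranspExer samples, grouped by the sample labels. The table the authors deposited holds expected counts for each gene without normalization, 10.1% to 12.2% of them per sample not exactly equal to a whole number, and a gene length. The labels name mm10 as the genome build. Aligner, counting tool and use of strand are not given in the sources used here, and the paper and the labels name different library kits. Counts were rounded and tested with edgeR 4.0.16 in R 4.3.3 (filterByExpr, TMM, quasi-likelihood test, no covariates), and p-values were adjusted by Benjamini-Hochberg across 15190 genes. A gene counted as a DEG when its adjusted p-value was below 0.05 and its fold change reached 2, the thresholds of the study's methods. Standard errors were derived from the fold change and F statistic.

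The 10 genes, the pathway and marker lists and the tests were chosen with earlier results of these data known. The rule for named genes took the 10 members, pathway genes past both thresholds and the most abundant gene of each role, and further pathway and marker genes were named after their values were seen. The remaining planned ratio, *Ptgds* to *Hpgds*, was not computed because *Ptgds* was at or below the floor. Intervals and floors cover counting error only where no replicates enter. Positions are from GENCODE M21, which held 52073 of the 56980 identifiers, and promoters from RefSeq GRCm38.p6. Alternatives were DESeq2 1.42.0, other normalizations and low-count filters, blocking on the replicate number, testing the fold change inside the model, other pseudocounts and each sample left out.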

Additional observations from a re-analysis of the deposited data

How the results depend on the processing

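*Ptgs1*, *Ptgs2*, *Ptges* and *Hpgds* kept direction and call with DESeq2, other normalizations and filters, and each sample left out. *Tbxas1* was lost as described, and *Alox5ap* passed without TranspCtrl replicate 1, so higher members numbered 2 to 4 with samples left out. With the replicate number as a block, 3 genes were higher and 2 lower, as without it. Deviations of equally numbered samples correlated by -0.00167 to 0.0416, so the numbers were not taken as pairs. When the fold change of 2 was tested in the model, 0 of the 10 genes passed in either direction, and of pathway genes 3 were higher and 0 lower. Pathway genes past both thresholds and lower numbered 4 with upper-quartile factors or library size only, and 1 to 4 with samples left out (1 without TranspCtrl replicate 1 or TranspExer replicate 3). At the adjusted p-value alone, left-out samples gave 9 to 19 higher and 6 to 15 lower pathway genes, the fewest higher without TranspExer replicate 2 and the fewest lower without TranspExer replicate 3. *Ptgis* reversed to -0.02 with upper-quartile factors, -0.03 with library size only and -0.23 without TranspCtrl replicate 1, the lowest of a left-out range that reached 0.25. The difference in the *Ltc4s* to *Alox5* ratio ran from -0.04 to 0.19 with samples left out, and that of *Alox5* to *Alox5ap* from -0.07 to 0.14. The log2 ratio of the T and NK cell sum was 0.45, and 0.36 with library size only. That of the macrophage sum was -0.44, and 0.1 without *Lyz2*, an alternative chosen after seeing the data. Without TranspCtrl replicate 1, also chosen after seeing the data, higher macrophage markers numbered 7, lower neutrophil markers 1 and lower T and NK cell markers 2, against 3, 2 and 1. The *Ptgis* to *Tbxas1* difference ran from -0.66 to -0.09 with samples left out. The causes of these moves were not tested. *Ptgis* and *Ltc4s* had the lowest counts of the tested genes, and depth as a limit on their intervals was not tested.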

Other observations

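Among the pathway and marker genes tested, those whose log2 CPM followed each called synthesis gene most closely over the 6 samples were named by Pearson's r, as a description with no test, since the same group difference enters every pair. *Ptgs2* lay closest to *Jchain*, the joining chain of plasma cells (r = 0.996), and *Cnn1*, a smooth muscle calponin (r = 0.995). *Ptges* lay closest to the B cell receptor component *Cd79b* and the stromal proteoglycan *Dcn* (r = 0.981 for both). *Hpgds* lay closest to the endothelial gene *Egfl7* (r = 0.987) and the basophil protease *Prss34* (r = 0.985). *Tbxas1* lay closest to *Mgst2* (r = 0.993) and *Alox15* (r = 0.985), and *Ptgs1* to *Mcam* (r = 0.992) and *Myh11* (r = 0.988). The naming was first limited to genes past both thresholds, and was extended to those past the adjusted p-value after the values were seen.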
